A study of Danio rerio with 8 samples.

Results

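The genes described here encode the proteins that prepare replication origins and build the replication fork. They were taken by symbol: 58 symbols of the deposited table, among 32520 genes, name subunits of the origin recognition complex, MCM and GINS genes, cdc6, cdc7, cdc45, cdt1, gmnn, pcna, and genes of RFC, RPA, primase, the replicative polymerases, nucleotide supply and CAF-1. The symbol pattern matched 59 rows, and of the 2 rows named rrm2 the one with the larger mean (ENSDARG00000078069) was kept. It also took in cdc73, a subunit of the Paf1 transcription elongation complex, and mcm3ap, which encodes an mRNA export factor. These 2 were classed here as outside replication, which leaves 56 members classed in DNA replication or its nucleotide supply.

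Zebrafish embryos of the AB strain were exposed from 2 hpf (hours post-fertilization) to KT09, an ethanolic extract of the stems of the medicinal plant Mahonia bealei, at 100 µg/ml, or kept as controls in E3 embryo medium with 0.5% DMSO, the solvent of the extract stocks. The DMSO content of the treated pools is not stated, but the paper names 0.5% as the highest solvent content in its survival and malformation tests. RNA of whole embryos with their yolk was sequenced from 4 treated and 4 control pools of 75 embryos, which had been kept at 25 per well. The labels give 8 hpf for the collection and call the samples whole larvae, while parts of the paper give a later hour. The pools are labelled by hour and not by stage, so treatment and the developmental stage reached cannot be told apart in these samples.

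The library file names in the labels of replicate 4 carry the code of the other group, in both groups, while the titles and treatment fields give the groups used here. All values are the authors' means over a group, so neither these 2 libraries nor any other could be left out. The authors' own comparison over the pools was not used, so no spread between pools is given here and no test over pools was made. Each value is a normalised count, that is, the reads of a gene divided by the size factor of the library and averaged over the pools of a group. The relative depth of the libraries, estimated from what a single read adds to a group mean, ranged from 0.980 to 1.16 in treated and from 0.820 to 1.14 in control pools. A log2 ratio below is that of the treated over the control mean after adding 1 to each. Of 19 markers of germ layers, enveloping layer, germ cells and yolk syncytial layer, 18 had a mean of 10 or more in both groups, and the exception was mxtx2 of the yolk syncytial layer, at 10.4 in treated and 5.68 in control embryos. The summed level of the 19 was 179314 in treated and 166139.7 in control embryos, most of it from the keratin genes krt4, krt5 and krt18a.1, and without these 3 it was 46917 in treated and 34019.5 in control embryos. Of the 18 markers with a mean over both groups of 10 or more, 5 were higher (27.8%, all genes 13.8%) and 1 was lower (5.56%, all genes 15.1%) in treated embryos by more than 1.5-fold. The lower one was tp63 of the epidermal ectoderm, at 145 in treated and 999 in control embryos (log2 ratio -2.77). The higher ones were the germ cell gene ddx4, at 2309 in treated and 1004 in control embryos (1.20), the mesoderm genes tbxta (0.87) and tbx16 (0.63), the neural ectoderm gene sox3 (0.81) and the endoderm gene sox32 (0.73). The other markers with a mean of 10 or more stayed within 1.5-fold. Of endoderm, sox17 (-0.23) and gata5 (-0.33) were lower, unlike sox32. Of mesoderm and organizer, chrd was lower (-0.14), and noto (0.45) and gsc (0.47) were higher. Of epidermis and enveloping layer, krt5 was lower (-0.16), and krt4 (0.05), krt18a.1 (0.06) and cldne (0.27) were higher. Neural sox2 (0.20) and the germ cell genes nanos3 (0.55) and dazl (0.56) were higher. The part of such cell type differences in the values of the replication genes was not tested. In whole embryos, fewer cells that express a gene and less RNA per cell cannot be told apart. The RNA also held maternal mRNA, and the paper names altered maturation or degradation as possible sources of changes besides transcription. Their part was not tested here.

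Replication is licensed when the origin recognition complex, Cdc6 and Cdt1 load the MCM2-7 helicase onto DNA, and geminin, which binds Cdt1, prevents a repeat of this step in the same cycle. The kinase Cdc7 with its partner Dbf4 then helps to turn the loaded ring into the active CMG helicase with Cdc45 and the GINS complex, after which primase, polymerases, the PCNA clamp with its RFC loader, the single-strand binder RPA, Fen1 and Lig1 copy the DNA. Fish embryos divide rapidly at first on products supplied by the mother, and their cycles lengthen around the onset of zygotic transcription.

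Most members had a lower mean in treated embryos, and 19 had a higher one, among them the licensing genes cdc6 and cdt1. The log2 ratio was below 0 in 39 of 58 members (67.2%), where the share over all 15888 genes with a mean of 10 or more was 49.6%. For 8 of the 39 the interval of the ratio that covers counting error alone included 1 (cdc45, gins2, mcm8, pola1, pold2, pold3, rfc4 and rrm2b). Of the 19 higher members 16 had an interval above 1, and the exceptions were pole2, rpa3 and tyms. The median log2 ratio of the members was -0.14, against 0.01 over all these genes. The study called genes by a 1.5-fold change together with an adjusted p-value, and only the fold was applied here. By more than 1.5-fold, 4 members were higher (6.90%, all genes 13.8%) and 7 were lower (12.1%, all genes 15.1%). Both shares are under those of all genes, so the number past this fold is no result about the members. At a smaller threshold, a ratio of more than 5 to 4 in either direction, 6 members were higher (10.3%, all genes 25.6%) and 19 were lower (32.8%, all genes 26.5%). By more than 2-fold, 1 member was higher (all genes 5.78%) and 0 were lower (all genes 6.51%). Of the 53 members with a mean of 100 or more, 3 were higher (all such genes 9.54%) and 5 were lower (all such genes 10.1%) by more than 1.5-fold. The sum over the members was 133814 in treated and 129322 in control embryos, which is 0.791% and 0.800% of all normalised counts.

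**Figure D1:**
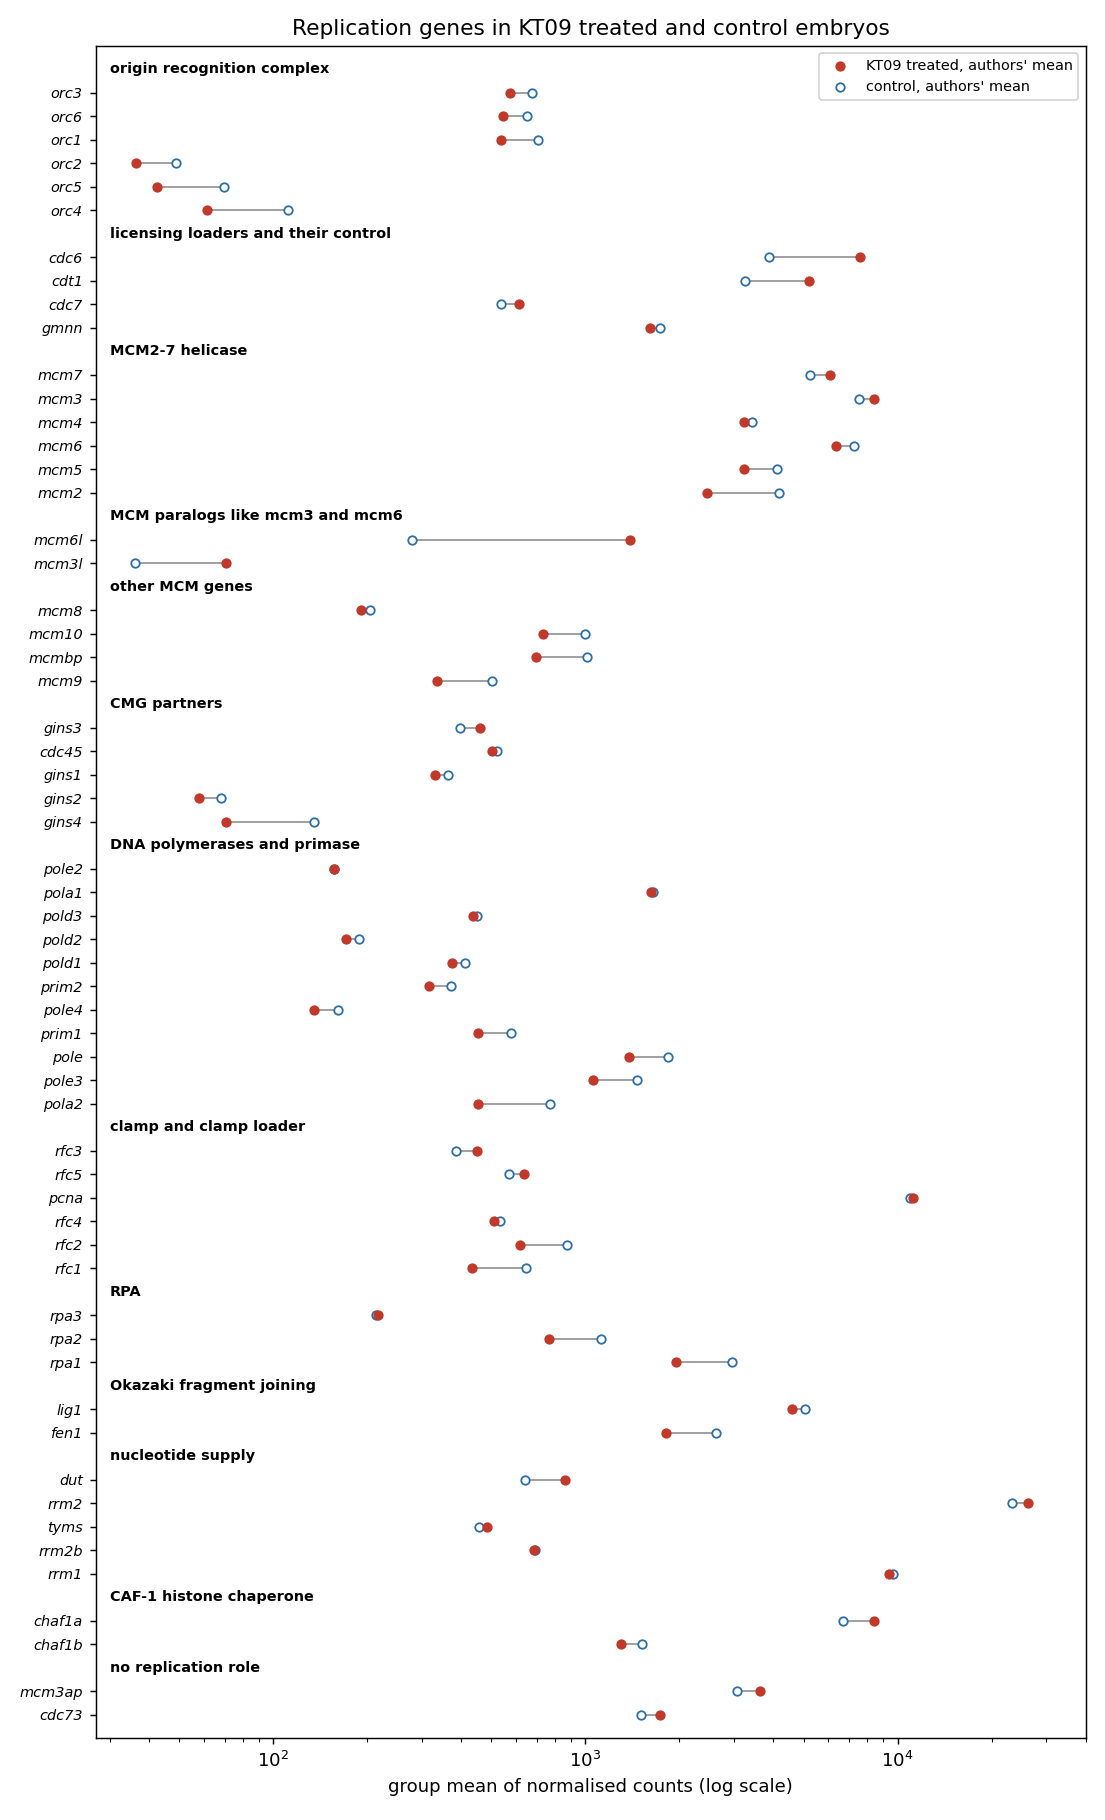
Authors' mean of normalised counts of each of the 58 members, on a log axis, in KT09 treated (filled red) and control embryos (open blue), grouped by role; a grey line joins the values of 1 gene. The 6 origin recognition genes all have the treated value to the left of the control value, while cdc6, cdt1, mcm6l and mcm3l have it clearly to the right.

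The 2 factors that bring the helicase to the origin complex had higher transcript levels in treated embryos. For cdc6 (ENSDARG00000009942), an ATPase that joins the origin complex before loading, the authors' mean was 7556 in treated and 3873 in control embryos, a log2 ratio of 0.96. The cdt1 gene (ENSDARG00000051854), whose product carries the MCM ring to the origin, had 5206 in treated and 3236 in control embryos, a log2 ratio of 0.69. Its inhibitor gmnn, geminin, was at 1614 in treated and 1737 in control embryos, a log2 ratio of -0.11. The level of cdt1 over that of gmnn was thus 3.22 in treated and 1.86 in control embryos, a 1.73-fold difference. Such a ratio of 2 genes is not corrected for transcript length, and only its difference between the groups is meant. These genes are well covered: for cdt1 about 21924 reads over the treated and 12651 over the control pools stand behind the means. The 95% exact interval of its ratio, which covers counting error only, ran from 1.57 to 1.64, or 0.65 to 0.72 as log2. With both groups scaled to the same sum, the log2 ratio was 0.62 for cdt1, under this interval, and 0.90 for cdc6.

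The kinase gene cdc7, needed to fire licensed origins, was at 616 in treated and 537 in control embryos, a log2 ratio of 0.20. Its activating partner dbf4, which the symbol pattern does not take in, was at 2355 in treated and 1662 in control embryos, a log2 ratio of 0.50. Both parts of the kinase were thus on the higher side, by less than 1.5-fold.

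All 6 genes of the origin recognition complex, which marks origins on DNA, had a log2 ratio below 0 (all genes 49.6%). Their counting intervals of the ratio were under 1, and their median log2 ratio was -0.40. The orc1 gene, an ATPase subunit of the complex, was at 538 in treated and 707 in control embryos, a log2 ratio of -0.39. With orc6 (543 in treated and 651 in control embryos) and orc3 (574 and 673, in the same order), it belongs to the better covered subunits, and these had log2 ratios of -0.26 for orc6 and -0.23 for orc3. The other subunits had few reads. The orc4 gene was at 61.5 in treated and 112 in control embryos (log2 ratio -0.85), and orc5 at 42.4 in treated and 69.8 in control embryos (-0.71), both past 1.5-fold. For orc2, at 36.3 in treated and 48.7 in control embryos, only about 153 reads in treated and 191 in control pools stand behind the means, and the interval of its ratio, for counting error only, ran from 0.597 to 0.925. The loader lay on the other side: the level of cdc6 over that of orc1 was 14.1 in treated and 5.48 in control embryos.

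The subunits of the MCM2-7 ring, the core of the replicative helicase, did not differ in 1 direction. The mcm2 gene (ENSDARG00000102798) was the only one of the 6 past 1.5-fold, at 2454 in treated and 4159.9 in control embryos, a log2 ratio of -0.76. The mcm5 gene was at 3223 in treated and 4102 in control embryos (-0.35), mcm6 at 6365 and 7239 in the same order (-0.19), and mcm4 at 3231 and 3420.2 (-0.08). Values were slightly higher in treated embryos for mcm3, at 8395 in treated and 7536 in control embryos (log2 ratio 0.16), and for mcm7, at 6080.0 in treated and 5256 in control embryos (0.21). The level of mcm7 over that of mcm2 was therefore 2.48 in treated and 1.26 in control embryos, a 1.96-fold difference. These 2 genes had the highest and the lowest log2 ratio of the 6, so this is the widest gap and not a typical one. The proteins form a ring with 1 copy of each, and protein levels were not measured in these samples. At this depth counting error is small for all 6 genes. The widest interval of a log2 ratio among them, that of mcm2, ran from -0.80 to -0.73. Such intervals do not cover the choice of scaling. With both groups scaled to the same sum, the log2 ratios of all 6 fell outside them, that of mcm2 at -0.83.

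The 2 paralogs of ring subunits stood apart from the genes they resemble. The mcm6l gene (ENSDARG00000033231) had the highest log2 ratio of all members, 2.31, with an authors' mean of 1392 in treated and 279 in control embryos, a 4.97-fold difference. The interval of this ratio, for counting error only, ran from 4.67 to 5.32. The mcm3l gene (ENSDARG00000037532) had few reads, at 70.6 in treated and 36.2 in control embryos, a log2 ratio of 0.95. About 297 reads in treated and 141 in control pools stand behind it, with an interval from 1.59 to 2.41. The RefSeq gene table lists MCM6m and MCM3m among the synonyms of mcm6l and mcm3l, and MCM6z and MCM3z among those of mcm6 and mcm3. In the frog Xenopus, maternal forms of MCM3 and MCM6 serve the early embryo and are followed by zygotic forms.

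Since mcm6 was lower and mcm6l higher, their sum differed little, at 7757 in treated and 7518 in control embryos. Of this sum mcm6l made up 17.9% in treated and 3.71% in control embryos, without a correction for transcript length. For mcm3l the share of the sum with mcm3 was 0.834% in treated and 0.478% in control embryos, so mcm3 held nearly all of it in both groups. Paralogs can share reads where their sequences are alike, and how reads were divided between these pairs is not given in the sources used here.

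**Figure D2:**
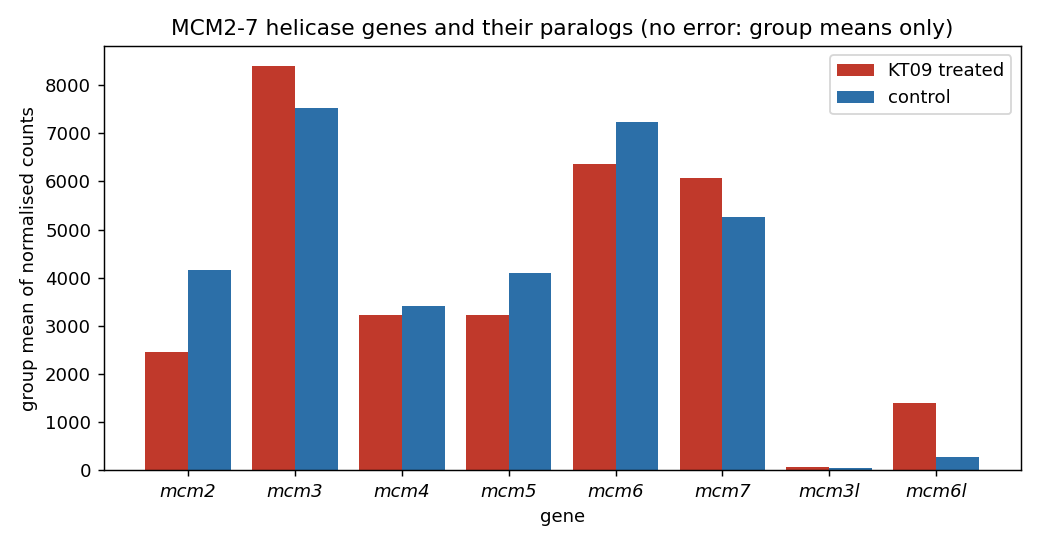
Authors' mean of normalised counts (from 0) of the 6 genes of the MCM2-7 ring and of mcm3l and mcm6l, with KT09 treated embryos in red and control embryos in blue; no error can be drawn, since only group means were used. The treated bar is lower for mcm2, mcm4, mcm5 and mcm6 and higher for mcm3, mcm7 and mcm6l.

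The other MCM genes act beside the ring. All 4 had a log2 ratio below 0 (all genes 49.6%), with a median of -0.49. The mcm10 gene, which helps to activate the helicase, was at 733 in treated and 997 in control embryos (log2 ratio -0.44). The mcmbp gene, whose product binds and helps to assemble or unload MCM subunits, was at 697 in treated and 1011 in control embryos (-0.54). For mcm9, which acts with Mcm8 in DNA repair, the mean was 334 in treated and 502 in control embryos (-0.59), only just past 1.5-fold, while mcm8 was at 191 in treated and 205 in control embryos (-0.10), with a counting interval of the ratio from 0.845 to 1.03 that included 1.

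Among the partners that turn the ring into the CMG helicase, gins4 had the lowest log2 ratio of all members, -0.92, at 70.8 in treated and 135 in control embryos. Its counting interval ran from 0.454 to 0.606 as a ratio. The other subunits of this 4-part complex were not lower to the same extent: gins1 was at 330.0 in treated and 364 in control embryos (-0.14), gins2 at 58.1 and 68.2 in the same order (-0.23), and gins3 at 461 and 398 (0.21). For gins2 the interval of the ratio included 1, from 0.713 to 1.02, so at this depth no difference was detectable even by counting alone. The cdc45 gene was at 504 in treated and 519.7 in control embryos, a log2 ratio of -0.04.

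Of 11 genes of primase and the replicative polymerases, 10 had a log2 ratio below 0 (all genes 49.6%), with a median of -0.23 over the 11. For pola1, pold2 and pold3 among the 10 the counting interval of the ratio included 1. Polymerase alpha with primase starts each new strand. Its accessory subunit gene pola2 was past 1.5-fold, at 454 in treated and 772 in control embryos (-0.76), whereas the catalytic subunit gene pola1 was at 1621 in treated and 1642 in control embryos (-0.02). The level of pola1 over that of pola2 was 3.57 in treated and 2.13 in control embryos. The primase genes lay between them, prim1 at 454 in treated and 579 in control embryos (-0.35) and prim2 at 317 and 371 in the same order (-0.23).

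Polymerase epsilon, which copies the leading strand, had its catalytic gene pole at 1384 in treated and 1834 in control embryos (-0.41) and the histone-fold subunit gene pole3 at 1062 in treated and 1469 in control embryos (-0.47). Another small subunit gene, pole4, was at 136 in treated and 161 in control embryos (-0.25). The pole2 gene was at 157 in treated and 156 in control embryos, a log2 ratio of 0.01 that fell below 0 when both groups were scaled to the same sum. Polymerase delta, which copies the lagging strand, showed smaller differences: pold1 was at 374 in treated and 413 in control embryos (-0.14), pold2 at 172 and 189 (-0.14), and pold3 at 437 and 451 (-0.05), each with the treated value first.

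The sliding clamp gene pcna, among the members with the highest counts, was at 11185 in treated and 10962 in control embryos, a log2 ratio of 0.03 that turned to -0.04 when both groups were scaled to the same sum. The 5 genes of the RFC clamp loader, which opens the clamp onto DNA, lay on both sides. The large subunit gene rfc1 was at 433 in treated and 645 in control embryos (-0.58), just under 1.5-fold, and rfc2 at 616 in treated and 875 in control embryos (-0.51). Against them, rfc3 was at 452 in treated and 385 in control embryos (0.23) and rfc5 at 639 and 569.8 in the same order (0.16), while rfc4 was at 512 and 535 (-0.06). The level of rfc3 over that of rfc1 was 1.04 in treated and 0.596 in control embryos, a 1.75-fold difference. This too sets the highest log2 ratio of the 5 against the lowest, and is the widest gap among them.

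RPA coats single-stranded DNA at the fork as a trimer. Its large and middle subunit genes were lower together, rpa1 at 1953 in treated and 2949 in control embryos (log2 ratio -0.59, past 1.5-fold) and rpa2 at 763 in treated and 1123 in control embryos (-0.56). The small subunit gene rpa3 was at 216 in treated and 214 in control embryos, a log2 ratio of 0.01 that was -0.05 when both groups were scaled to the same sum. Of the enzymes that finish Okazaki fragments, the flap nuclease gene fen1 was at 1809.9 in treated and 2613 in control embryos (-0.53) and the ligase gene lig1 at 4596 in treated and 5059 in control embryos (-0.14).

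Genes of nucleotide supply differed little between the groups. The ribonucleotide reductase genes rrm1 and rrm2, whose products make deoxynucleotides, were at 9410.1 and 26180.4 in treated embryos, against 9665 and 23273 in control embryos, with log2 ratios of -0.04 for rrm1 and 0.17 for rrm2. The alternative small subunit gene rrm2b was at 687 in treated and 690.2 in control embryos (-0.01), and tyms, thymidylate synthase, at 485 in treated and 458 in control embryos (0.08). The exception was dut, whose product removes dUTP, at 861 in treated and 641 in control embryos (0.43). CAF-1 places histones behind the fork, and its large subunit gene chaf1a was at 8406 in treated and 6682 in control embryos (0.33), while chaf1b was at 1303 in treated and 1515 in control embryos (-0.22). The 2 members classed here as outside replication were on the higher side. The cdc73 gene was at 1738 in treated and 1503 in control embryos (0.21) and mcm3ap at 3625 in treated and 3057 in control embryos (0.25).

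Seen over the whole set, differences were small at high levels apart from cdc6 and, to a lesser extent, chaf1a (log2 ratio 0.33). The 8 members with a mean over 5000 had log2 ratios from -0.19 to 0.96, and 2 of them were below 0. Of 14 members with a mean from 1000 to 5000, 11 were below 0, and of 31 with a mean from 100 to 1000, 22 were. The share below 0 over all genes with a mean of 100 or more was 48.0%, and it was not computed for each level. The 5 members with a mean under 100 had log2 ratios from -0.85 to 0.95 and the widest counting intervals, up to 0.32 to either side on the log2 scale, against at most 0.06 for members over 1000.

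**Figure D3:**
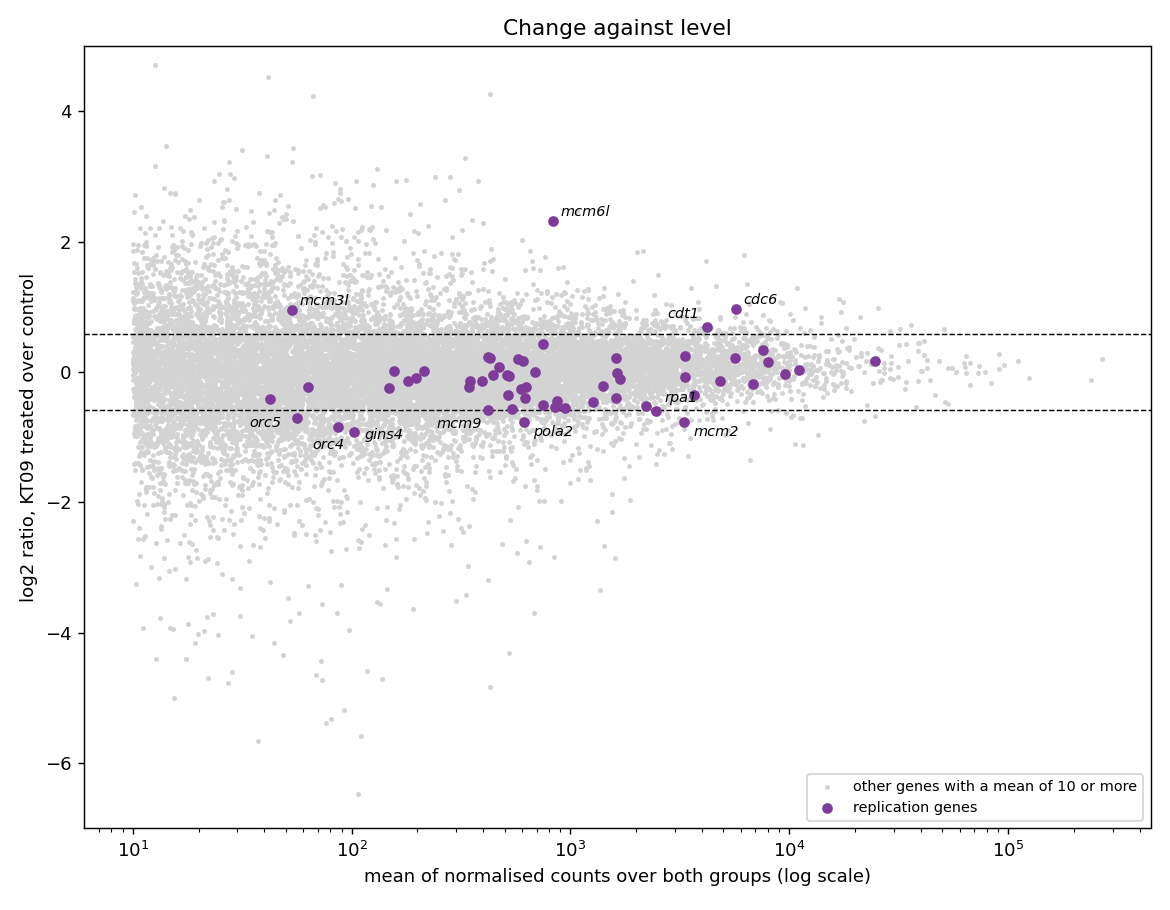
Log2 ratio of treated over control means (vertical) against the mean over both groups on a log axis (horizontal) for the 58 members (purple) and all other genes with a mean of 10 or more (grey); dashed lines mark 1.5-fold. Of the 58 members 47 lie between the dashed lines, with mcm6l at 2.31 far above the rest and gins4 at -0.92 the lowest.

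Other replication factors gave a similar picture. They were listed from textbook knowledge but with earlier results of these data known, so the likeness is no independent support. Of 40 listed, 35 had a mean of 10 or more, and 25 of these were below 0 (71.4%, all genes 49.6%) with a median log2 ratio of -0.19; 6 were lower (17.1%, all genes 15.1%) and 1 was higher (2.86%, all genes 13.8%) by more than 1.5-fold. The lowest were rnaseh2b, a subunit of the nuclease that removes ribonucleotides, at 159 in treated and 363 in control embryos (-1.19), and ten1 of the telomere replication complex CST, at 7.21 in treated and 14.8 in control embryos (-0.94). The highest were dbf4 and ssrp1b, a gene of the FACT histone chaperone, at 19.4 in treated and 7.67 in control embryos (1.23), near the filter of 10. Its paralog ssrp1a, at 4466 in treated and 4885 in control embryos (-0.13), was slightly lower. So was the FACT partner gene supt16h, at 10761 in treated and 12196 in control embryos (-0.18). Genes of the S-phase checkpoint and fork repair had a median of -0.16, with 28 of 44 below 0 (46 listed), a share of 63.6% against 49.6% of all genes. By more than 1.5-fold, 2 were higher (4.55%, all genes 13.8%) and 6 were lower (13.6%, all genes 15.1%). The checkpoint kinase gene atr had the lowest value, at 67.1 in treated and 173 in control embryos (-1.36), followed by fancd2 of the Fanconi anaemia pathway, at 58.6 in treated and 124 in control embryos (-1.07). The highest was wee2, known from mammals as the oocyte form of the Wee1 kinase, at 199 in treated and 43.2 in control embryos (2.18), and then zranb3, a fork remodelling gene, at 114 in treated and 65.1 in control embryos (0.80).

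Genes that regulate entry into S phase and those of mitosis lay on the other side. The list of G1/S regulators mixes cyclins and their kinases with inhibitors of these kinases and genes of the Rb family. Its shares therefore do not describe activators of S phase alone. Of 37 G1/S regulators (42 listed), 26 were above 0 (70.3%, all genes 50.4%), with a median of 0.16. By more than 1.5-fold, 5 were higher (13.5%, all genes 13.8%) and 4 were lower (10.8%, all genes 15.1%), shares at or under those of all genes. The cyclin gene ccna1, known from mouse as a germ line cyclin, was at 202 in treated and 48.4 in control embryos (2.04), and the D-type cyclin gene ccnd3 at 31.1 in treated and 12.3 in control embryos (1.26). The lowest were tfdp2, a partner of E2F factors, at 74.6 in treated and 371 in control embryos (-2.30), and ccnd2a, at 15.1 in treated and 41.9 in control embryos (-1.41). Of 44 mitotic genes (47 listed), 39 were above 0 (88.6%, all genes 50.4%), with a median of 0.31, against -0.14 for the replication genes. By more than 1.5-fold, 8 mitotic genes were higher (18.2%, all genes 13.8%) and 0 were lower (all genes 15.1%). With both groups scaled to the same sum, 5 of the 44 were higher, a share under the 11.8% of all genes at that scaling. The highest mitotic genes were ccnb2, a cyclin of the mitotic kinase, at 1974 in treated and 1054 in control embryos (0.90), and racgap1 of cytokinesis, at 4946 in treated and 2790.4 in control embryos (0.83). The lowest were prc1b, of the central spindle, at 266 in treated and 323 in control embryos (-0.28) and the kinetochore gene spc24 at 912 in treated and 989 in control embryos (-0.12). With group means alone the difference between the 2 lists could not be tested over pools.

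**Figure D4:**
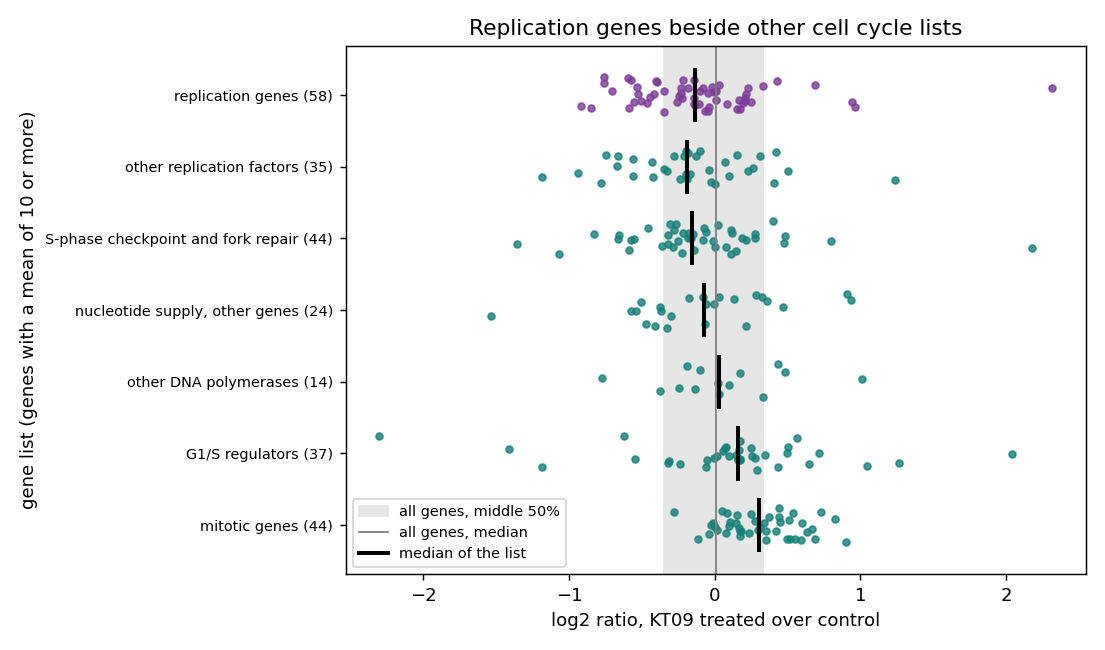
Log2 ratio of treated over control means for each gene with a mean of 10 or more in 7 lists, with the number of genes in brackets; black bars are medians, and the grey band and line are the middle 50% and the median of all genes. The replication genes, with a median of -0.14, lie left of the mitotic genes, with a median of 0.31.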

How the data were processed

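Stranded mRNA libraries of 8 pools gave single-end reads of 100 bp. Per the methods, the authors ran nf-core rnaseq 3.0 against the GRCz11 genome and gene models of Ensembl release 103. The deposited signal values are counts that the authors divided by the size factors of DESeq2 (version not given in the sources used here) and averaged over the treated, the control or all pools. The other 5 numeric columns hold the authors' own comparison (log2 fold change, its standard error, test statistic, p and adjusted p) and were not used. The planned fit to counts per pool was therefore not made.

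Log2 ratios of the group means were computed with a pseudocount of 1, for genes with a mean of 10 or more, and counted past 1.5-fold beside all genes. Reads behind a mean were estimated from the relative depths, and exact (Clopper-Pearson) 95% intervals of a ratio cover counting error only. The methods state in general that repeats of an experiment came from separate clutches, and the labels do not tie pools to clutches. Members and lists were chosen with earlier results of these data known. Of 217 list symbols, 205 were found by symbol, 2 by a RefSeq synonym, 9 not at all, and 1 pointed to a row already used. Levels of different genes were not compared per length, since no transcript lengths were used. Named genes are members past 1.5-fold, the highest, lowest and best covered of each role, mcm2 to mcm7, pcna, orc1 and gmnn, and the 2 highest and 2 lowest of each other list. Other members were added with their values in view, as was the choice to set mcm3l and mcm6l apart. Computations were tested on simulated data and were run in Python (version 3.11.15) with numpy (2.4.6) and pandas (2.3.3) for the ratios, scipy (1.17.1) for the intervals and matplotlib (3.10.9) for plots. Alternatives were the fold threshold, the filter, the pseudocount, the scaling, the row kept per symbol and the set without cdc73 and mcm3ap.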

Additional observations from a re-analysis of the deposited data

How the results depend on the processing

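Only group means were used, so no replicate could be left out, count models such as edgeR or DESeq2 could not be fitted, and no paired analysis was possible because the columns carry no replicate numbers. For the replication genes, past a ratio of 5 to 4 the number lower was 19, and past 2-fold 1 gene was higher (mcm6l) and 0 were lower. With both groups scaled to the same sum, which lowers each log2 ratio by about 0.07, 11 were lower past 1.5-fold (19.0%, all genes then 17.6%) and 4 higher (6.90%, all genes then 11.8%), and pcna, rpa3 and pole2 changed sign. Past a ratio of 5 to 4 (all genes 25.6% higher, 26.5% lower), the 35 other replication factors had 4 higher and 12 lower. In the same order, the 24 genes of nucleotide supply had 5 and 9, the 44 checkpoint and repair genes 5 and 10, and the 14 other polymerases 4 and 2. The 37 G1/S regulators had 10 higher and 5 lower, and the 44 mitotic genes 21 higher and 0 lower. Past 2-fold (all genes 5.78% higher, 6.51% lower), other replication factors had 1 higher and 1 lower, and nucleotide supply genes 0 higher and 1 lower. G1/S regulators had 3 higher and 3 lower, and mitotic genes 0 higher and 0 lower. Checkpoint and repair genes had 1 higher and 2 lower, and other polymerases 1 higher and 0 lower. Without a filter on the mean, 2 other replication factors were higher and 6 lower, and no shares over all genes were computed for this setting. The higher gene that this added was slbp2, at 9.82 in treated and 4.34 in control embryos. At a mean of 100 or more (all genes 9.54% higher, 10.1% lower), other replication factors had 0 higher and 5 lower, and other polymerases 0 higher and 1 lower. At that mean nucleotide supply had 1 higher and 0 lower, and checkpoint and repair genes 1 higher and 4 lower. The medians were then -0.10 for other polymerases and -0.08 for checkpoint and repair genes. At equal sums the median of other replication factors was -0.26 and that of mitotic genes 0.24. Mitotic genes then had 5 of 44 higher and 0 lower, and nucleotide supply genes 2 of 24 higher and 3 lower (all genes then 11.8% higher, 17.6% lower). All these shares are under those of all genes, so the larger share of higher mitotic genes past 1.5-fold was not kept at this scaling. The median over all genes was then -0.06. The medians at equal sums were -0.20 for the replication genes, -0.14 for nucleotide supply, -0.22 for checkpoint and repair, 0.09 for G1/S regulators and -0.04 for other polymerases, the last with a change of sign. Intervals do not cover the spread between pools or the choice of scaling.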

Other observations

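Further genes of nucleotide supply, outside the symbols described above, lay on both sides. Of 24 (27 listed) with a mean of 10 or more, 15 were below 0 (62.5%, all genes 49.6%), with a median log2 ratio of -0.07. The salvage kinase gene dck was at 22.1 in treated and 66.0 in control embryos (-1.54) and impdh1b, of guanine nucleotide synthesis, at 2685 in treated and 3995 in control embryos (-0.57). The highest were ctps1b, of CTP synthesis, at 43.1 in treated and 22.1 in control embryos (0.93), and the nucleoside diphosphate kinase gene nme2b.1, at 2272 in treated and 1211 in control embryos (0.91).

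DNA polymerases of repair, damage bypass and mitochondria had a median log2 ratio of 0.03, against -0.23 for primase and the replicative polymerases. The median of 0.03 became -0.04 with both groups scaled to the same sum, and -0.10 at a mean of 100 or more. Of 14 (15 listed) with a mean of 10 or more, 6 were below 0 (42.9%, all genes 49.6%). By more than 1.5-fold, 1 was higher (7.14%, all genes 13.8%) and 1 was lower (7.14%, all genes 15.1%). The highest were polm, of end joining, at 94.9 in treated and 46.7 in control embryos (1.01), and polq, of microhomology-mediated end joining, at 1459.9 in treated and 1044 in control embryos (0.48). The lowest were rev3l, the catalytic subunit of bypass polymerase zeta, at 547 in treated and 937 in control embryos (-0.78), and polg2 of the mitochondrial polymerase, at 111 in treated and 144 in control embryos (-0.37).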
